A study of Mus musculus with 40 samples.

Results

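The injured hemisphere of the neonatal mouse brain was compared with the uninjured hemisphere in the 10 arrays of animals that had received lipopolysaccharide (LPS), a bacterial cell wall component, and then hypoxia-ischaemia (HI), with no peptide. These are 5 injured and 5 uninjured samples of the 40 arrays deposited. They were chosen by their labels, and the number in the label was taken as the pair of hemispheres. All samples were brain RNA of C57/Bl6 mice at postnatal day 9, measured on Affymetrix arrays. Vehicle had been given 4 h before LPS, HI followed 14 h after LPS, and the hemispheres were taken 6 h after HI. The left hemisphere is the injured side and the right the uninjured side in every sample, so injury and side cannot be told apart. The uninjured hemisphere also came from animals that had LPS and the HI procedure, and is no untreated control. Further groups of 5 samples used here are the same 2 hemispheres of animals given the peptide IDR-1018 in place of vehicle on the same schedule, brains taken 10 h after vehicle alone (Vehicle), and brains taken 6 h after LPS (LPS). The labels give no dose, no sex, and no statement that samples sharing a number came from the same animal or that each sample is a separate animal. The spread that the tests use is thus that between these samples, and may be technical.

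In the usual neonatal rodent model of HI, a carotid artery is closed on a single side and the pup then breathes low oxygen. The hemisphere on the closed side loses both blood flow and oxygen, while the other side meets low oxygen alone. LPS given beforehand sensitises the neonatal brain to such an insult. Within hours of HI, stressed and dying cells switch on immediate early, heat shock and DNA damage genes, and microglia, astrocytes and vessel cells switch on chemokines, cytokines and receptors.

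The 10 arrays had median log2 signals of 7.02 to 7.11, and correlations of 0.990 to 0.997 with one another over 19937 genes. The injured sample 3 stood apart in its sex-linked transcripts. It had a high log2 signal for Xist, the transcript of the inactive X of female cells, at 11.23, and also for the Y-linked gene Eif2s3y, at 8.69. Its uninjured partner had Xist at 11.63 and Eif2s3y at 3.79. Both samples of pair 4 had Y-linked signal without Xist, and both samples of pairs 1, 2 and 5 had Xist without Y-linked signal. The differences of pair 3 had a mean correlation of 0.26 with those of the other pairs over all genes, against 0.41 to 0.45 for each other pair. Results are therefore also given without pair 3. The mean log2 signal of 55 cytosolic ribosomal protein genes was 10.26 to 10.63 in the uninjured and 10.33 to 10.68 in the injured samples, and was higher on the injured side in each pair, by 0.05 to 0.14. The part of this shift in the results was not tested.

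In total 2032 of 19937 genes (10.2%) differed between the hemispheres at a limma adjusted p under 0.05 with the pair as a block. Of these, 1256 rose in the injured hemisphere (6.30% of genes tested) and 776 fell (3.89%). The rises were larger than the falls. More than 1.5-fold rises were seen for 100 called genes and falls for 6, and 20 genes rose more than 2-fold while 0 fell as much. The median log2 fold change of all genes was 0.01. The lowest was that of the predicted gene Gm10754, at -0.98 ± 0.07, which has no functional name and was picked out after its values were seen. In 1215 of the genes that rose and 747 of those that fell, all 5 pairs differed the same way. In the lists below with 0 falls, up to 2 members had a lower signal at an unadjusted p under 0.05, except the prostaglandin list with 6, and in the lists with 0 rises up to 2 had a higher signal, except the neutrophil list with 3. In 1003 genes (5.03%) every injured sample lay on the same side of every uninjured sample, and 817 of these were called. Rises were 61.8% of the calls. Once each array was centred on its median, which moved the median difference by -0.03, the calls were 971 higher and 1201 lower, so that 44.7% were rises. The number of calls also moved with the samples used. It was 2461 without pair 3 (12.3% of genes), of which 1751 were among the 2032. It was 870, 972, 1072 and 980 without pairs 1, 2, 4 and 5. With the samples treated as unpaired it was 596 (2.99%), 434 higher and 162 lower, all of them among the 2032. All list counts below are to be read beside these totals, also those without a pair, without the pairing or with arrays centred. The number of arrays limits the precision, and the 95% interval of a difference reached 0.13 to either side for the median gene.

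**Figure D1:**
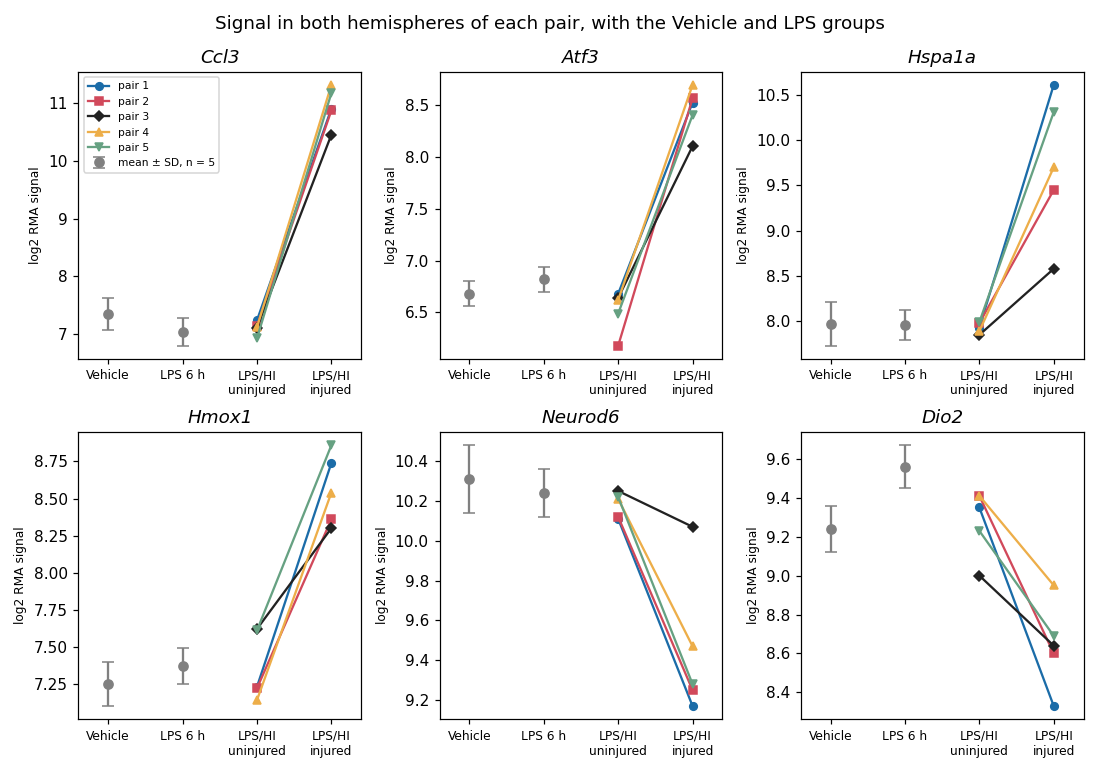
Log2 signals of leading genes in the uninjured and injured hemisphere, with a line joining the 2 samples of each numbered pair and grey points for the mean ± SD (n = 5) of the Vehicle and LPS groups. The lines climb in all 5 pairs for genes such as Ccl3, from about 7 to between 10.45 and 11.31, and pair 3 has the lowest injured value for Ccl3 and Hspa1a.

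Ccl3, which encodes the monocyte-attracting chemokine MIP-1 alpha, changed most. Its log2 signal was 7.24, 7.14, 7.11, 7.12 and 6.93 in uninjured samples 1 to 5, and 10.90, 10.87, 10.45, 11.31 and 11.17 in injured samples 1 to 5. The groups were far apart, and injured sample 3 was the lowest of its group. The log2 fold change was 3.83 ± 0.12 (SE, 5 pairs, limma adjusted p = 4.78e-07), or 14.2-fold, and it was 3.95 without pair 3. The stress-induced transcription factor gene Atf3 had log2 signals of 6.68, 6.18, 6.64, 6.62 and 6.49 in the uninjured and 8.52, 8.56, 8.10, 8.69 and 8.40 in the injured samples. Here too there was no overlap, and Atf3 rose by 1.93 ± 0.11 on the log2 scale (limma adjusted p = 2.70e-05).

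Hspa1a encodes the inducible chaperone HSP70. Its uninjured log2 signals lay close together, at 7.93, 7.98, 7.85, 7.89 and 7.99, and its injured signals were spread, at 10.61, 9.45, 8.58, 9.70 and 10.31. The injured samples differed more among themselves than in any of the other genes printed in full, with sample 3 the lowest and sample 1 the highest, yet none reached the uninjured range. The log2 fold change was 1.80 ± 0.22 (limma adjusted p = 0.00186), and 2.06 without pair 3. Its near-identical neighbour Hspa1b could be sharing its signal, since the array sequence of the pair is hard to tell apart. Gadd45b, a growth arrest and DNA damage gene, went from 7.65, 7.93, 7.73, 7.72 and 7.85 to 9.53, 9.45, 8.70, 9.13 and 9.54, again without overlap and with injured sample 3 the lowest. It rose by 1.49 ± 0.11 (limma adjusted p = 1.42e-04).

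The 250 bases before the start site of these 4 genes are shown because the genes led their lists and belong to different stress and inflammatory pathways. They are from RefSeq on mouse build GRCm38.p6 and run 5′ to 3′ in the direction of transcription, with Ccl3 at chr11:83649379-83649628 on the minus strand, Atf3 at chr1:191183334-191183583 on the minus strand, Hspa1a at chr17:34972157-34972406 on the minus strand and Gadd45b at chr10:80929841-80930090 on the plus strand. Capitals mark matches to the motifs searched.
Ccl3: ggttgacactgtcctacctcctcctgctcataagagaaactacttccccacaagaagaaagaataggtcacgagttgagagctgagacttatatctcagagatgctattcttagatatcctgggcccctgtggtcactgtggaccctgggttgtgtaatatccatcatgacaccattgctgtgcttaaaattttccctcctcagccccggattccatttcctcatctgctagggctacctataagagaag
Atf3: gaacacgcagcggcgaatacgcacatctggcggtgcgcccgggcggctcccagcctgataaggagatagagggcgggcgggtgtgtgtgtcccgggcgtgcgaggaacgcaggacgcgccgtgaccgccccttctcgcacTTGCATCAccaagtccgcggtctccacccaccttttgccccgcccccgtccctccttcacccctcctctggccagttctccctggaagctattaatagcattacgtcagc
Hspa1a: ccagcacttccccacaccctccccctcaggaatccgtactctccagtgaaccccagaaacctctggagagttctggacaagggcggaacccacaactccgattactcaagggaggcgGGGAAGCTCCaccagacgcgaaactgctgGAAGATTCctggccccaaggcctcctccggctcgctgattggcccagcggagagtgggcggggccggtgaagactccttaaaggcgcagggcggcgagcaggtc
Gadd45b: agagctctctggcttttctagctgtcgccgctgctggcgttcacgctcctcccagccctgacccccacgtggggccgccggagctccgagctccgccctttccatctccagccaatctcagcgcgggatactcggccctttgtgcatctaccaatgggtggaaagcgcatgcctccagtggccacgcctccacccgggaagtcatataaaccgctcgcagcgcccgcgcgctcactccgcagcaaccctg

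Both strands were searched for a heat shock element (GAANNTTC or TTCNNGAA), a cyclic AMP response element (TGACGTCA), an AP-1 site (TGANTCA), a C/EBP-ATF composite (TGATGCAA), an antioxidant element (TGACNNNGC), a metal element (TGCACNC), the kappaB consensus and the CArG box. The Atf3 window held a C/EBP-ATF composite on the reverse strand, beginning 110 bases before the start. Hspa1a held a heat shock element beginning 104 bases and a kappaB consensus beginning 133 bases before the start. No letters of these motifs were found in the Ccl3 and Gadd45b windows. Over windows of 250 bases before to 50 after the start, 13.2% of all 19115 promoters (of 15562 of the genes tested) held a heat shock element, against 14.1% of promoters of genes that rose and 12.5% of those that fell. For the C/EBP-ATF composite the shares were 0.706%, 0.908% and 0.904%. The kappaB consensus was in 9.54% of all promoters, 12.7% of those of genes that rose and 11.1% of those of genes that fell. The AP-1 site was in 6.88%, 7.92% and 5.43%, the antioxidant element in 13.2%, 15.2% and 10.6%, and the CArG box in 1.41%, 1.49% and 0.904%. The cyclic AMP response element was in 2.38%, 2.15% and 1.94%, and the metal element in 12.8%, 10.7% and 14.0%. These shares are descriptions of the letters in the windows.

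**Figure D2:**
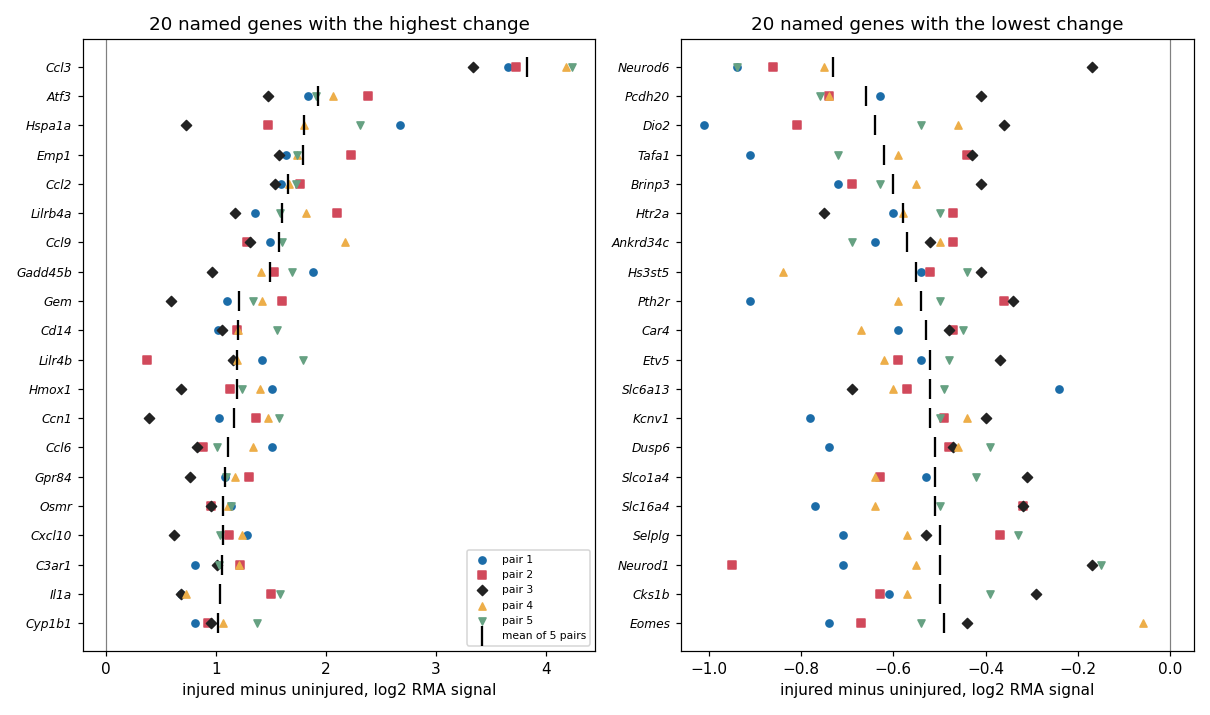
Difference of injured minus uninjured log2 signal in each of the 5 pairs, for the 20 called genes with the highest and the 20 with the lowest log2 fold change. Only genes whose 5 pairs all differed the same way were taken, so the shared direction was set by the choice. Predicted genes without a functional name were passed over. Points of pair 3 lie closest to 0 in 14 of the 20 genes that rose and 11 of the 20 that fell.

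Chemokines recruit blood leukocytes to the brain. Of 30 chemokines and chemokine receptors measured, 10 rose and 0 fell, with a median log2 fold change of 0.12 against 0.01 for all genes. Without pair 3 the count was 11, with another pair left out 10 and without the pairing 9. Ccl2, which attracts monocytes, had uninjured log2 signals of 6.51, 6.28, 6.58, 6.14 and 6.24 and injured signals of 8.09, 8.04, 8.12, 7.80 and 7.97. The 2 sets were well separated and the pairs alike, with a rise of 1.65 ± 0.05 (limma adjusted p = 4.78e-07). The myeloid CC chemokines Ccl9 and Ccl6 rose by 1.57 ± 0.11 and 1.11 ± 0.10. Cxcl10, the interferon-induced ligand of CXCR3, a chemokine receptor of T cells, rose by 1.06 ± 0.09 (limma adjusted p = 2.91e-04). The rise of Cxcl10 was the smallest in pair 3, where the uninjured sample, at 6.17, was the highest of its group. The other 5 that rose were Ccl12, Ccl7, Ccl4, Ccl17 and Cxcl16, with values from 0.42 to 0.89.

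Cytokine genes and their receptors rose in 17 of 35 cases and fell in 0, with a median of 0.21. There were 17 rises without pair 3, 13 or 14 with another pair left out and 11 without the pairing. Osmr, a receptor subunit for oncostatin M, was at 8.10, 7.90, 7.91, 7.87 and 7.47 in the uninjured and 9.24, 8.85, 8.86, 8.98 and 8.61 in the injured samples. Every pair differed by about the same amount, and Osmr rose by 1.06 ± 0.05 (limma adjusted p = 2.04e-05). The interleukin-1 genes Il1a and Il1b, early alarm signals of inflamed tissue, rose by 1.04 ± 0.14 and 0.77 ± 0.11. The difference of Il1a was 0.68 to 0.73 in pairs 1, 3 and 4 and larger in pairs 2 and 5, where it reached 1.58. Injured sample 2 was the highest of its group (7.45) and uninjured sample 5 the lowest of its group (5.39). Csf1, the growth factor of microglia and macrophages, rose by 0.60 ± 0.07 (limma adjusted p = 0.00115). Tnf and Il6 were among the smaller rises, at 0.40 and 0.25, and the call of Il6 was lost without any pair but pair 3 and without the pairing.

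Receptors by which myeloid cells sense microbes and debris rose in 14 of 36 cases, and 0 fell (median 0.18). Leaving out pair 3 also gave 14, leaving out another pair 11 to 13 and dropping the pairing 10. The inhibitory immunoglobulin-like receptor gene Lilrb4a had 6.45, 5.85, 6.42, 5.90 and 5.93 in the uninjured and 7.79, 7.94, 7.59, 7.71 and 7.51 in the injured samples. It rose without overlap by 1.60 ± 0.12 (limma adjusted p = 1.42e-04), and its close relative Lilr4b by 1.19 ± 0.16, though the array may not separate these near-identical genes. Cd14, the co-receptor that hands LPS to its receptor, was at 6.72, 6.15, 6.25, 6.38 and 6.59 and at 7.74, 7.34, 7.30, 7.59 and 8.14. Its lowest injured sample, number 3, was above its highest uninjured sample, and the rise was 1.20 ± 0.08 (limma adjusted p = 5.85e-05). The scavenger receptor Msr1 rose by 0.95 ± 0.07 and the hyaluronan receptor Cd44 by 0.73 ± 0.05. Gpr84, a fatty acid receptor of activated myeloid cells, rose by 1.08 ± 0.07.

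Among 16 complement genes 3 rose (6.30% over all genes) and 0 fell. These were the anaphylatoxin receptors C3ar1, at 1.05 ± 0.07, and C5ar1, at 0.65 ± 0.08, and the gene of properdin, Cfp, at 0.27 ± 0.06. The call of Cfp was lost without pair 1, 2 or 5 and without the pairing, and the list's median was 0.05. Of 23 genes of NF-kB, the transcription factor that LPS and cytokines activate, its feedback and its targets, 9 rose and 0 fell, with a median of 0.18. The count was 10 without pair 3, 7 without pair 1, 4 without pair 2, 4 or 5, and 3 without the pairing. Ier3, an early survival gene, rose by 0.68 ± 0.08, the leukocyte adhesion gene Icam1 by 0.54 ± 0.08 and the nuclear cofactor Bcl3 by 0.38 ± 0.08. Calls for Bcl3 were lost without pair 5 and without the pairing.

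Prostaglandin and leukotriene genes had 3 rises among 20 (6.30% over all genes) and a median of -0.02. Ptges, the terminal synthase of prostaglandin E2, rose by 0.50 ± 0.06 (limma adjusted p = 0.00115) and the prostaglandin E2 receptor Ptger4 by 0.27 ± 0.06. The inducible cyclooxygenase Ptgs2 rose by 0.37 ± 0.09 (limma adjusted p = 0.0252). The calls of Ptgs2 and Ptger4 were lost without pair 2, 4 or 5 and without the pairing, leaving 1, and with arrays centred 3 other members were called lower. Interferon-stimulated genes rose in 13 of 30 cases with 0 falls and a median of 0.18. There were 13 without pair 3, 8 without pair 1, 2 or 5, 10 without pair 4 and 4 without the pairing. Beside Cxcl10, the antiviral gene Ifit3 rose by 0.83 ± 0.06 (limma adjusted p = 1.60e-04), Rsad2 by 0.57 ± 0.06 and the guanosine triphosphatase Irgm1 by 0.53 ± 0.06, the last not called without the pairing.

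**Figure D3:**
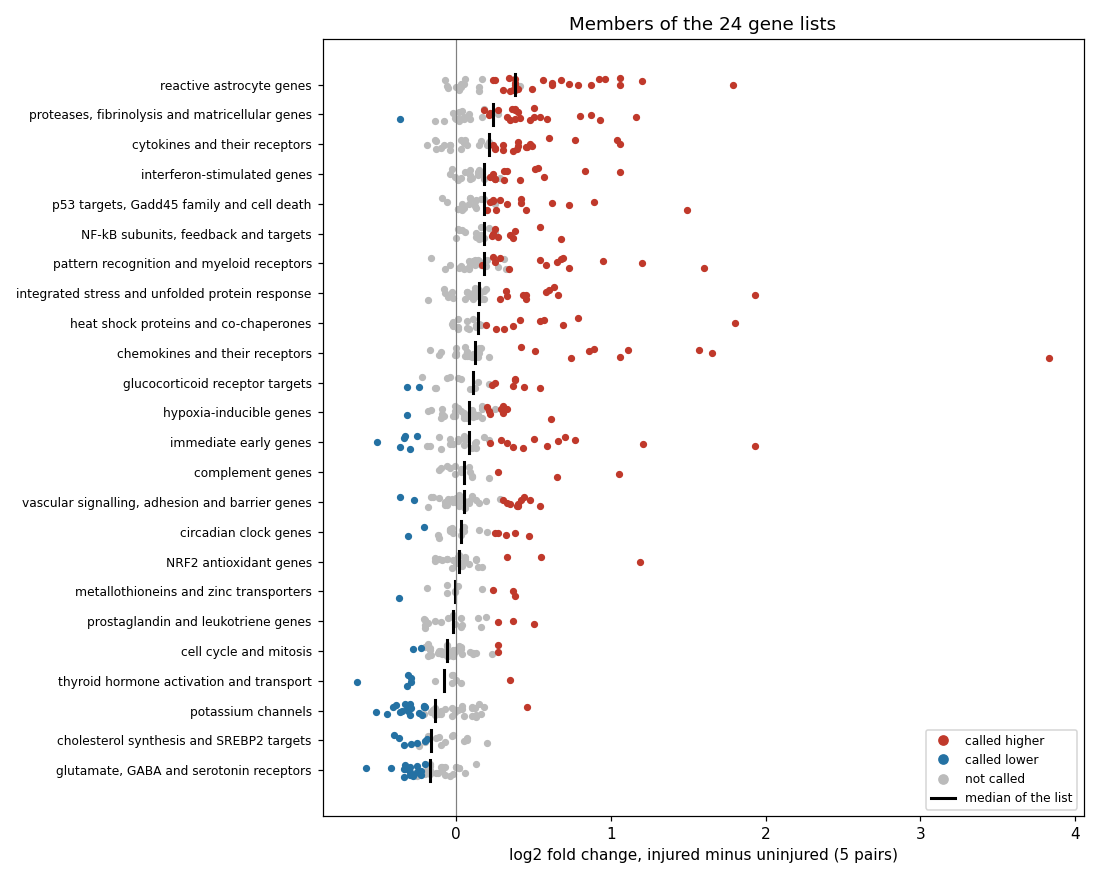
Log2 fold change of each measured member of the 24 gene lists, injured minus uninjured, with called members marked. Members called higher are 25 of 38 in the reactive astrocyte list, and members called lower are 16 of 41 in the list of glutamate, GABA and serotonin receptors. In most lists the larger share was not called.

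Immediate early genes, which cells switch on without new protein synthesis, moved in both directions. Of 36 measured, 12 rose and 6 fell, with a median of 0.08. Without pair 3 the counts were 14 and 7, with another pair left out 9 or 10 and 4 to 6, and without the pairing 9 and 2. After Atf3, the small GTP-binding protein gene Gem rose by 1.21 ± 0.12 and the AP-1 subunits Fos and Fosb by 0.77 ± 0.09 and 0.70 ± 0.14. Fos was at 6.68, 6.81, 6.84, 6.73 and 6.98 in the uninjured and at 7.11, 7.53, 7.54, 7.52 and 8.19 in the injured samples, so the groups did not overlap and injured samples 1 and 5 were the extremes. The call of Fosb was lost without pair 5.

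The members that fell were Dusp6, Nr4a3, Nr4a2, Inhba, Egr4 and Egr3. Dusp6, a phosphatase that restrains ERK kinases, had 9.52, 9.37, 9.25, 9.39 and 9.52 in the uninjured and 8.79, 8.89, 8.78, 8.93 and 9.13 in the injured samples. No injured sample reached the uninjured range, and Dusp6 fell by 0.51 on the log2 scale (SE 0.06, limma adjusted p = 0.00143). The orphan nuclear receptors Nr4a3 and Nr4a2 were at -0.36 ± 0.06 and -0.34 ± 0.06, the activin subunit gene Inhba at -0.33 ± 0.07, and the zinc finger factors Egr4 and Egr3 at -0.30 ± 0.05 and -0.25 ± 0.06. The injured and uninjured ranges of Nr4a3, Inhba, Egr4 and Egr3 overlapped. Calls were lost without the pairing for Nr4a2, Inhba, Egr4 and Egr3, without pair 1 for Inhba and Egr3, and without pair 5 for Egr3. Etv5, an ETS factor that like Dusp6 is a known target of fibroblast growth factor and ERK signalling, fell by 0.52 (SE 0.05, limma adjusted p = 9.32e-04), and its other probe set differed by -0.60.

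Genes of the integrated stress and unfolded protein response, which limit translation and refold proteins, rose in 11 of 34 cases with 0 falls (median 0.15). The count was 14 without pair 3, 9 or 10 with another pair left out and 9 without the pairing. Stc2, a secreted stress glycoprotein, rose by 0.66 ± 0.12, the factor Cebpd by 0.63 ± 0.09 and the mitochondrial folate enzyme Mthfd2 by 0.60 ± 0.07. In pair 3 the difference of Stc2 was 0.12, with uninjured 7.07 and injured 7.19, while in the other pairs it was 0.49 to 1.05. Heat shock proteins and co-chaperones rose in 10 of 24 cases, and 0 fell (median 0.14). There were 10 without pair 3, 8 with another pair left out and 5 without the pairing. Beside Hspa1a, the small heat shock proteins Hspb1 and Hspb8 rose by 0.79 ± 0.14 and 0.69 ± 0.08, and the HSP110 gene Hsph1 by 0.57 ± 0.06. Hspb1 was at 7.92, 7.56, 8.54, 7.63 and 8.50 and at 8.81, 8.61, 8.50, 8.63 and 9.55, so it was level in pair 3 and about 1 higher in the other pairs. Its call was lost without the pairing, and its second probe set differed by 1.10.

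Hypoxia-inducible genes had 8 rises and 1 fall among 38, with a median of 0.08. The rises were 8 without pair 3 but 2 or 3 with any other pair left out, and 3 without the pairing. Adm, the vessel-dilating peptide adrenomedullin, rose by 0.61 ± 0.09 (limma adjusted p = 0.00326), the glycolysis regulator Pfkfb3 by 0.33 ± 0.06 and the angiogenic factor Vegfa by 0.30 ± 0.06. The call of Vegfa was lost without pair 1, 4 or 5. Hif3a, a family member that can oppose the hypoxia-inducible factors, was at -0.32 ± 0.05, a call lost without the pairing. Among 25 genes of NRF2, the main regulator of antioxidant defence, 3 rose (6.30% over all genes) and 0 fell, with a median of 0.02. They were the haem-degrading enzyme Hmox1, the regulator itself, Nfe2l2, and the sulfiredoxin Srxn1, and the count was 3 in all 5 fits without a pair and without the pairing. Hmox1 was at 7.23, 7.22, 7.62, 7.14 and 7.61 in the uninjured and at 8.74, 8.36, 8.30, 8.54 and 8.86 in the injured samples. It rose without overlap by 1.19 ± 0.10 (limma adjusted p = 3.49e-04), Nfe2l2 by 0.55 ± 0.05 and Srxn1 by 0.33 ± 0.05.

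Metallothioneins and zinc transporters gave 3 rises and 1 fall among 11, against 6.30% and 3.89% over all genes. The metal-binding proteins Mt2 and Mt1 rose by 0.38 ± 0.08 and 0.37 ± 0.10, and the zinc exporter Slc30a1 by 0.24 ± 0.05. Slc30a3, which loads zinc into synaptic vesicles, was at -0.37 ± 0.06. The call of Mt2 was lost without pair 1, 2 or 4, that of Mt1 without any pair but pair 3, with arrays centred and without the pairing, that of Slc30a1 without pair 2 and that of Slc30a3 without the pairing.

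Genes of p53, the Gadd45 family and cell death rose in 14 of 31 cases, with 0 falls and a median of 0.18. There were 15 rises without pair 3, 9 to 11 with another pair left out and 8 without the pairing. After Gadd45b came its paralogue Gadd45g, at 7.50, 7.40, 7.54, 7.63 and 7.85 in the uninjured and 8.51, 8.43, 8.01, 8.51 and 8.94 in the injured samples. Injured sample 3 was again the lowest, and Gadd45g rose by 0.89 ± 0.08 (limma adjusted p = 5.87e-04). The TWEAK receptor gene Tnfrsf12a rose by 0.73 ± 0.08 and the p53 target Phlda3 by 0.62 ± 0.07. The death receptor gene Fas was at 0.42 and the pro-apoptotic Bcl2l11 at 0.45, both called.

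Reactive astrocyte genes, which mark the response of astrocytes to injury, had the highest share of rises of the 24 gene lists. Of 38 measured, 25 rose and 0 fell, with a median of 0.38. The count was 26 without pair 3, 19 to 21 with another pair left out and 16 without the pairing. Several of these genes are also made by microglia and vessel cells, and 12 of the 25 that rose stand in another list too, Cd14, Cxcl10, Osmr, Cd44, Clcf1, Il6, Ptgs2, Hspb1, Timp1, Thbs1, Serpina3n and Iigp1. Emp1, a membrane protein known from epithelia, had 7.96, 7.32, 7.58, 7.77 and 7.62 in the uninjured and 9.60, 9.55, 9.15, 9.51 and 9.37 in the injured samples. The groups were apart by more than either group's range, and Emp1 rose by 1.79 ± 0.09 (limma adjusted p = 2.01e-05). The intermediate filament genes Gfap, Vim and Nes rose by 0.38, 0.56 and 0.34. The call of Nes was lost without pair 1, 3, 4 or 5, and those of Gfap and Nes without the pairing. Among markers of astrocytes at rest, 0 of 16 rose and 5 fell, with a median of -0.09. They were the deiodinase Dio2, the amino acid transporter Slc7a10 (-0.46 ± 0.05), the growth factor receptor Fgfr3 (-0.44 ± 0.05), the potassium channel Kcnj10 (-0.24 ± 0.05) and Ntsr2. Without pair 3 the list again had 5 falls, but Ntsr2 was not among them. With any other pair left out, and without the pairing, 3 were called, and Kcnj10 and Ntsr2 were among those lost.

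Proteases, fibrinolysis genes and matricellular proteins, which loosen and rebuild the matrix around cells, rose in 21 of 38 cases and fell in 1 (median 0.24). The rises were 19 without pair 3, 12 to 16 with another pair left out and 13 without the pairing. Ccn1, a matricellular protein, had 7.35, 7.58, 7.54, 7.35 and 7.59 in the uninjured and 8.38, 8.93, 7.93, 8.83 and 9.16 in the injured samples. The difference of pair 3 was the smallest, and Ccn1 rose by 1.16 ± 0.15, or by 1.36 without pair 3. The plasminogen-binding annexin Anxa2 rose by 0.93 ± 0.09, the protease inhibitor Timp1 by 0.87 ± 0.14 and the galectin Lgals3 by 0.80 ± 0.07. Timp1 overlapped between the groups, because uninjured sample 3 was at 7.69. The relative of Ccn1, Ccn2, was at -0.36 ± 0.10 (limma adjusted p = 0.0476), a call lost without pair 1, 2, 3 or 4 and without the pairing.

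Of 40 vascular genes 10 rose and 2 fell, with a median of 0.05. Without pair 3 the rises were 12, with another pair left out 7 or 9 and without the pairing 8. Beside Icam1, the vessel-destabilising Angpt2 rose by 0.48 ± 0.10, Angptl4 by 0.44 ± 0.08 and the vasoconstrictor precursor Edn1 by 0.42 ± 0.07. The call of Angpt2 was lost without pair 2 and without the pairing. The 2 that fell were the pericyte and progenitor proteoglycan Cspg4, at -0.27 ± 0.05 and not called without the pairing, and the lipid transporter of the blood-brain barrier Mfsd2a, at -0.36. Endothelial markers did not move together: Pecam1 rose by 0.39 ± 0.07 and the organic anion transporter Slco1a4 fell by 0.51 (SE 0.06), while 12 of 14 were not called. Slco1a4 was not called without the pairing. The shares called over all genes were 6.30% higher and 3.89% lower. Cyp1b1, a cytochrome of vessel and perivascular cells, rose by 1.02 ± 0.08 (limma adjusted p = 1.49e-04).

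Markers of excitatory neurons of cortex and hippocampus were among the genes that fell. Of 29 measured, 17 fell and 0 rose, with a median of -0.21. In bulk tissue, fewer cells of a type and less RNA per cell cannot be told apart. The count was 16 without pair 3, 5 to 7 with another pair left out and 4 without the pairing. Neurod6, a transcription factor of these neurons, had 10.11, 10.12, 10.25, 10.21 and 10.22 in the uninjured and 9.17, 9.25, 10.07, 9.47 and 9.28 in the injured samples. Injured sample 3 lay close to the uninjured range and the other 4 well below it. Neurod6 fell by 0.73 (SE 0.10, limma adjusted p = 0.00333), and by 0.87 without pair 3. Its relative Neurod1 was at -0.50 ± 0.11, a call lost without pair 1, 2 or 4 and without the pairing. The deep layer factor Fezf2 was at -0.35 ± 0.06. The list's mean difference was -0.26, -0.17, -0.09, -0.19 and -0.20 in pairs 1 to 5, smallest in pair 3.

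Markers of striatal projection neurons fell in 6 of 18 cases and rose in 0 (median -0.16). The falls were 5 without pair 3, 3 without pair 1, 2 or 4, 6 without pair 5, 1 without the pairing and 10 with arrays centred. Gpr6, a receptor of these neurons, was at 9.30, 9.30, 9.16, 9.60 and 9.35 in the uninjured and 8.66, 8.97, 8.90, 9.06 and 8.91 in the injured samples. It fell without overlap by 0.44 (SE 0.06, limma adjusted p = 0.00373). The dopamine signalling gene Ppp1r1b was at -0.40 ± 0.05 and the enkephalin precursor Penk at -0.30 ± 0.05, both not called without the pairing. General neuronal markers fell in 3 of 17 cases (median -0.08), with the tubulin Tubb3 at -0.43 ± 0.05 and calls close to the threshold for Snap25 and Dcx. Of the 3, 0 were called without the pairing. Over all genes 3.89% were called lower. Of 18 interneuron markers 2 fell, Calb1 at -0.33 ± 0.07 and the neuropeptide gene Cck at -0.31 ± 0.08, and neither was called without pair 1 or without the pairing. The call of Calb1 was also lost without pair 2, and that of Cck without pair 3, 4 or 5.

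**Figure D4:**
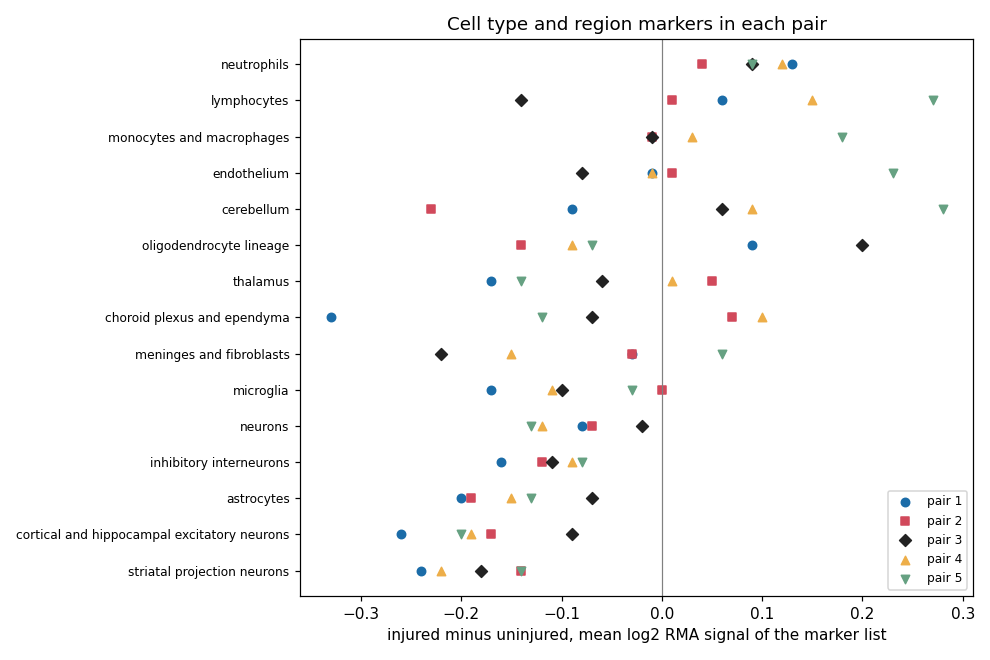
Mean log2 difference of each cell type marker list, injured minus uninjured, in each of the 5 pairs. Excitatory and striatal neuron lists are below 0 in all 5 pairs, and the neutrophil list lies between 0.04 and 0.13.

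Receptors for glutamate, GABA and serotonin fell in 16 of 41 cases and rose in 0, with a median of -0.17. The falls were 17 without pair 3, 8 to 11 with another pair left out, 2 without the pairing and 21 with arrays centred. Htr2a, a serotonin receptor of cortical pyramidal neurons, had 9.84, 9.68, 9.77, 9.84 and 9.70 in the uninjured and 9.24, 9.21, 9.02, 9.26 and 9.20 in the injured samples. The groups were clearly apart, and unlike in Neurod6 injured sample 3 was the lowest. Htr2a fell by 0.58 (SE 0.06, limma adjusted p = 5.87e-04). Htr1b, a presynaptic serotonin receptor, was at -0.42 ± 0.05, the NMDA receptor subunit Grin2a at -0.34 ± 0.05 and the AMPA receptor subunit Gria3 at -0.34 ± 0.05. The ranges of Htr1b, Grin2a and Gria3 overlapped between the hemispheres, and their calls rested on the pairing.

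Potassium channel genes, which set the resting potential and repolarise neurons, fell in 17 of 48 cases and rose in 1 (median -0.14). The falls were 16 without pair 3, 8 to 10 with another pair left out and 7 without the pairing. The subunits Kcnv1, Kcnh5 and Kcnt2 were at -0.52 ± 0.06, -0.45 ± 0.08 and -0.41 ± 0.06, and the accessory subunit Kcne4 rose by 0.46 ± 0.09. Calls of Kcnt2 and Kcne4 were lost without the pairing. Genes outside these lists were also among the 20 with the largest falls. The protocadherin gene Pcdh20 was at -0.66 ± 0.06, the secreted protein gene Tafa1 at -0.62 ± 0.07, Brinp3 at -0.60 ± 0.06, Ankrd34c at -0.57 ± 0.05, the heparan sulfate sulfotransferase Hs3st5 at -0.55 ± 0.07 and the peptide receptor Pth2r at -0.54 ± 0.08. In each of these 6 genes the hemispheres did not overlap, as in 5.03% of all genes. They were picked for large falls with 5 pairs alike, which favours such separation. The membrane carbonic anhydrase Car4 was at -0.53 ± 0.05 and the transporter Slc16a4 at -0.51 ± 0.07. Cks1b, a cyclin-dependent kinase subunit, was at -0.50 ± 0.06, while of 39 cell cycle genes 2 rose and 2 fell. Over all genes 6.30% rose and 3.89% fell. In that list 3 rose and 2 fell without pair 3, 1 and 0 without pair 1, 0 and 2 without pair 5, and 0 each without pair 2, without pair 4 and without the pairing.

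Thyroid hormone genes fell in 5 of 12 cases and rose in 1, with a median of -0.08. The falls were 5 without pair 3, 3 without pair 5, 4 with another pair left out and 2 without the pairing. Dio2, the astrocyte enzyme that makes active thyroid hormone, was at 9.35, 9.41, 9.00, 9.41 and 9.23 in the uninjured and 8.33, 8.60, 8.64, 8.95 and 8.69 in the injured samples. The highest injured value was just below the lowest uninjured value, and Dio2 fell by 0.64 (SE 0.09, limma adjusted p = 0.00328). The partner receptor Rxrg was at -0.32 ± 0.05 and the thyroxine transporter Slco1c1 at -0.31 ± 0.05, and both calls were lost without the pairing. The transporter Slc16a10 rose by 0.35 ± 0.07, a call lost without pair 1. Cholesterol synthesis genes fell in 7 of 20 cases and rose in 0 (median -0.16). The falls were 7 without pair 3, 2 to 5 with another pair left out and 2 without the pairing. The sterol dehydrogenase Nsdhl was at -0.40 ± 0.05, Mvd of the mevalonate pathway at -0.37 ± 0.07 and the sterol reductase Tm7sf2 at -0.34 ± 0.05. The call of Mvd was lost without pair 1 and without the pairing.

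Of 20 clock genes 5 rose and 2 fell (median 0.03), against 6.30% and 3.89% over all genes. The rises were led by the repressors Cry1, at 0.47 ± 0.05, and Bhlhe41, at 0.32 ± 0.06, which was not called without the pairing. Ciart was at 0.38 ± 0.10, with its other probe set at 0.20, and was lost in 6 alternatives. The clock rises were 5 without pair 3, 2 or 3 with another pair left out and 1 without the pairing, and the clock falls 1 without pair 3 and 0 with another pair left out or without the pairing. Of 20 glucocorticoid receptor targets 7 rose and 2 fell (median 0.11), with Pdk4, a brake on glucose oxidation, at 0.54 ± 0.06. The rises were 6 without pair 3, 2 to 4 with another pair left out and 4 without the pairing, and the falls 3 without pair 3, 1 without pair 1, 2 or 5, 2 without pair 4 and 0 without the pairing.

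Microglial markers gave 2 rises and 5 falls among 21, with a median of -0.13, against 6.30% and 3.89% over all genes. The falls were 6 without pair 3, 3 to 5 with another pair left out, 1 without the pairing and 7 with arrays centred. The purine receptors P2ry12 and P2ry13, which are known to be lost from activated microglia, were at -0.45 ± 0.08 and -0.43 ± 0.06, and the call of P2ry13 was lost without the pairing. P2ry12 was at 8.09, 7.67, 7.61, 8.02 and 8.16 in the uninjured and 7.41, 7.25, 7.50, 7.46 and 7.67 in the injured samples, with a slight overlap of the groups. Selplg, the ligand of selectins, was at -0.50 ± 0.06, not called without the pairing, and the lysosomal Cd68 at 0.35 ± 0.08, lost without any pair but pair 3 and without the pairing.

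Few markers of blood leukocytes were called. Over all genes 6.30% were called higher and 3.89% lower. Of 16 neutrophil markers 0 were called, and their mean log2 signal was 5.40 to 5.55 in the uninjured and 5.47 to 5.64 in the injured samples. S100a9, an abundant neutrophil protein, was at 0.22 ± 0.07 (limma adjusted p = 0.0990) and Stfa2 at 0.25 ± 0.08 (limma adjusted p = 0.0743). Of 16 monocyte and macrophage markers 2 rose, Lyz2 by 0.28 ± 0.07 and Ms4a7 by 0.22 ± 0.06, and the list's mean signal was 6.42 to 6.58 and 6.41 to 6.61. Neither was called without pair 1, 2 or 5 or without the pairing. Of 15 lymphocyte markers 0 were called, with mean signals of 5.25 to 5.33 and 5.19 to 5.54. The neutrophil and lymphocyte means were low. The Y-linked gene Kdm5d read 4.86 to 5.03 in pairs 1, 2 and 5, which had no Y-linked signal. At such levels a difference can be missed, so the lack of calls does not show that these cells were absent. In limma 3 neutrophil markers and 1 lymphocyte marker were higher at an unadjusted p under 0.05, and 0 were lower. The part of these cells in the chemokine and receptor results was not tested.

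The cut of the brain can differ between hemispheres, so markers of other regions were examined. The shares over all genes were 6.30% called higher and 3.89% called lower. Cerebellar markers gave 1 rise and 1 fall among 14. The rise, of Barhl1, was lost with each pair left out, without the pairing and with arrays centred or quantile normalisation repeated, and the fall, of Calb1, without pair 1 or 2 and without the pairing. Thalamic markers gave 1 rise (Rgs16 at 0.63 ± 0.09) and 1 fall among 13. The thalamic marker that fell, Ntng1, was at -0.47 ± 0.06, but its other probe set differed by -0.06. Choroid plexus markers fell in 1 of 13 cases, a call of Kcnj13 lost without pair 1, 4 or 5 and without the pairing. Markers of meninges and fibroblasts gave 2 rises, among them the retinoic acid enzyme Aldh1a2 at 0.53 ± 0.07, and 4 falls among 17, among them the GABA transporter Slc6a13 at -0.52 ± 0.07 and the anion transporter Slc22a6 at -0.43 ± 0.06. Oligodendrocyte lineage markers gave 1 rise and 2 falls among 19 (0 and 1 without the pairing, the rise also 0 without pair 1 or 5), with the progenitor receptor Pdgfra at -0.35 ± 0.07, a call lost without pair 1, 2 or 5. The part of tissue composition in the results was not tested.

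The uninjured hemisphere was set beside Vehicle brains to place both sides on a common scale. These 2 groups share no numbers that pair them, differ in LPS, HI and time since dosing, and compare a hemisphere with whole brain as far as the labels say. In limma 87 genes were called (0.436%), 82 higher and 5 lower in the uninjured hemisphere. Of the genes named above, C3ar1, Gpr84, Ifit3, Il1a, Irgm1, Mt2 and Rsad2 were called higher there than in Vehicle. Gpr84 had a mean log2 signal of 6.69 ± 0.11 (SD, n = 5) in Vehicle, 7.25 ± 0.17 in the uninjured and 8.33 ± 0.11 in the injured hemisphere. C3ar1 climbed in the same order, from 7.52 ± 0.20 to 8.12 ± 0.16 and 9.17 ± 0.16. Irgm1 was at 6.78 ± 0.08, 7.81 ± 0.30 and 8.34 ± 0.26, below its mean of 8.91 ± 0.26 in brains taken 6 h after LPS. Ccl3 behaved otherwise, with 7.35 ± 0.28 in Vehicle, 7.04 ± 0.24 after LPS and 7.11 ± 0.11 in the uninjured hemisphere, against 10.94 ± 0.33 in the injured. Hspa1a had similar means outside the injured side, at 7.97 ± 0.24, 7.96 ± 0.17 and 7.93 ± 0.06, against 9.73 ± 0.79. The uninjured arrays enter both comparisons.

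The same contrast was available in 5 numbered pairs of hemispheres from animals that received IDR-1018, which share no samples with the pairs described. There 894 genes were called (4.48%), 593 higher and 301 lower. The check of the numbers does not bear out this pairing throughout, and without it 498 were called (2.50%), 358 higher and 140 lower, of which 433 were called the same way without peptide. Of the genes called without peptide, 481 were also called higher and 227 also called lower with it. Together these 708 are 34.8% of the calls without peptide and 79.2% of the calls with it, and 0 genes were called in opposite directions. All 20 genes with the highest fold changes without peptide were called with it, and 17 of the 20 with the lowest. Of all genes tested 49.9% had a positive difference with the peptide, against 96.8% of those that rose without it, and 97.6% of those that fell without it had a negative difference. Over the 19937 genes, which are not independent replicates, the 2 sets of log2 fold changes correlated at r = 0.78. Ccl3 rose by 4.08 ± 0.15 with the peptide, and the difference of the 2 effects was -0.25 (95% interval -0.72 to 0.22). Neurod6 was at -0.77 ± 0.10 with it, a difference of 0.04 (-0.30 to 0.37). The intervals of Hspa1a (-1.15 to 0.71) and Ccn1 (-1.04 to 0.43) were wide, since their pairs varied.

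**Figure D5:**
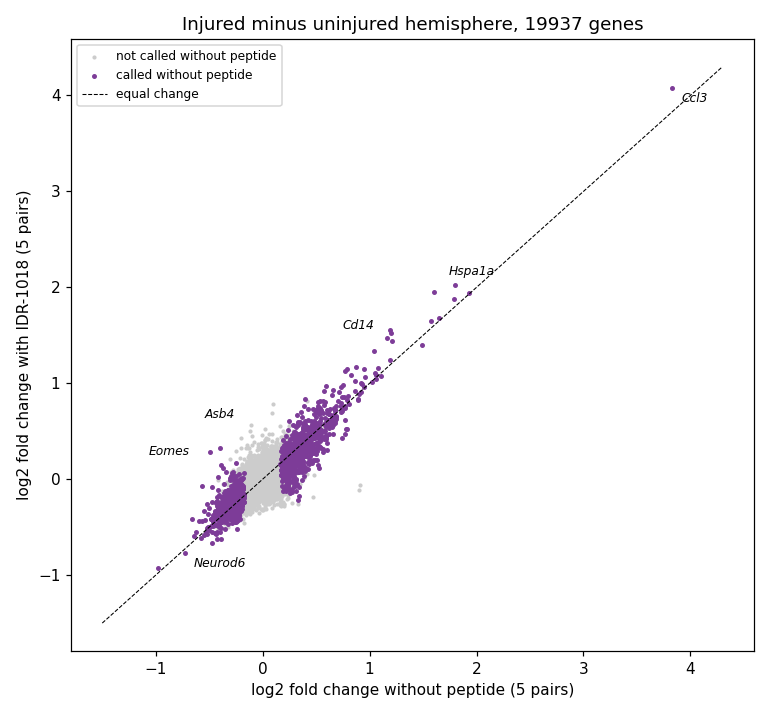
Log2 fold change of injured minus uninjured with IDR-1018 (vertical axis) against that without peptide (horizontal axis), with a point for each gene. Ccl3, at 3.83 and 4.08, lies at the far end of both axes, while Eomes, at -0.49 and 0.28, lies on opposite sides of 0.

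The test of the difference between the 2 contrasts called 0 genes (0%) in limma over 20 arrays and 10 pairs, and 0 in each alternative. At an unadjusted p under 0.05 in limma there were 634 of 19937 genes. This is fewer than the 1 in 20 expected if no gene differed. For the median gene the 95% interval of the difference between the contrasts reached 0.21 to either side, which limits what could be seen. The smallest p-values were those of Ly6g2, at a difference of -0.44 (95% interval -0.62 to -0.26, unadjusted p = 1.08e-04 in limma), Asb4, at -0.68 (SE 0.15), and Cbln4, at -0.42 (-0.64 to -0.21). Ly6g2 fell by 0.42 without the peptide and was at 0.02 ± 0.07 with it. Its signals without the peptide were low, at 4.90 to 5.16 in the uninjured and 4.48 to 4.88 in the injured samples. The Y-linked gene Kdm5d read 4.86 to 5.03 in pairs 1, 2 and 5, which had no Y-linked signal. Asb4 was at -0.11 ± 0.06 without the peptide and 0.57 ± 0.12 with it. Eomes, a factor of neuron progenitors, fell by 0.49 without the peptide, a call lost without the pairing and with all 40 arrays in the fit, and was at 0.28 ± 0.18 with it, a difference of -0.77 (-1.26 to -0.28) with an adjusted p that did not pass in limma. Its uninjured sample 4, at 6.15, was well below the other uninjured samples, at 6.90 to 7.40.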

How the data were processed

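The deposited values are log2 RMA signals, which the authors made from Affymetrix arrays, per the submitters' processing notes, which name RMA and affy without a version. RMA corrects background, quantile normalises and summarises probes, so a shift shared by a whole array would be hidden. Of 34760 probe sets, 21640 carried 1 gene symbol in the array annotation, 1321 several and 11799 none, and 21553 had a gene ID found in RefSeq GRCm38.p6. The probe set with the highest mean over 40 arrays was kept per gene, leaving 19937 genes with no filter on signal. For Ntng1 the other probe set did not follow.

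Differences were fitted with limma 3.58.1 (lmFit and eBayes, R 4.3.3) on the 10 arrays with the number as a block, and genes with an adjusted p (Benjamini-Hochberg, all genes) under 0.05 were called. Errors are standard errors unless marked SD. The interaction used 20 arrays and 10 blocks. Python 3.11.15 with pandas 2.3.3 made the tables. The number is taken as the hemisphere pair because the comparison is defined so. Deviations from the group mean correlated within numbers 1 to 5 at 0.501, 0.431, 0.392, 0.465 and 0.646 without peptide, although uninjured 3 correlated more with injured 5 (0.430). Injured sample 3 also had Y-linked signal that uninjured sample 3 lacked (Eif2s3y at 8.69 against 3.79). The sex-linked transcripts thus do not bear out number 3 as 2 hemispheres of 1 animal, and the main fit still keeps it as a block. With IDR-1018 the deviations correlated within numbers at 0.470, 0.416, 0.589, 0.094 and 0.088. There uninjured 3, 4 and 5 each correlated more with another number (3 with injured 4 at 0.623), so the check does not bear out that pairing. On simulated data for 19937 genes, 53.7% of 67 log2 differences of 0.3, 86.6% of 67 of 0.5 and 100.0% of 66 of 1 were called, with 6 false calls. The simulated noise was independent between genes and samples, the pairing was true, and far fewer genes changed than were called in the data. These rates therefore need not hold for the real samples.

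Members and lists were chosen with earlier results of these data known. Named were the 20 called genes highest and the 20 lowest in log2 fold change with 5 pairs alike, passing over predicted genes, and up to 4 called members of each list (2 by p where none was called). Nr4a3, Nr4a2, Inhba, Egr4, Egr3 and a few further list members were named after their values were seen. The 13 alternatives were leaving out each pair, no pairing, a random block, trend with robust fitting, all 40 arrays, centring, repeated quantile normalisation, the mean of probe sets and genes above the median signal.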

Additional observations from a re-analysis of the deposited data

Results flagged for a closer look

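Within the groups of 5 samples, 10 of 290 gene-by-group sets tested (3.45%) had a sample far from the other 4 by Dixon's criterion, against about 1 in 20 by chance, and 2 each fell in uninjured sample 5 and injured samples 1, 3 and 4. In injured sample 3, Etv5 was high at 8.82, next to 8.61, and Htr2a low at 9.02, next to 9.20. In uninjured sample 5, the chemokine Ccl6 was low at 6.10, next to 6.36, and the clock gene Cry1 at 7.72, next to 7.93. In injured sample 1, Rsad2 was high at 7.48, next to 7.09, and Tnfrsf12a at 8.38, next to 8.04. In injured sample 4, Kcnv1 was high at 10.09, next to 9.86, and Rps27l low at 9.78, next to 9.94. Vegfa was high in injured sample 5 at 9.94, next to 9.67, and Slc16a10 low in uninjured sample 3 at 6.03, next to 6.32.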

How the results depend on the processing

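Without the pairing by replicate number, 596 genes were called (434 higher and 162 lower) in place of 2032, and all 596 were among the 2032. With IDR-1018, where this alternative was added after seeing the data, 498 genes were called without the pairing in place of 894. Leaving out a pair gave 870 (without pair 1) to 2461 calls (without pair 3), with 607 to 1490 higher and 263 to 971 lower. With trend and robust fitting 3187 genes were called, of which 1400 were lower. Falls were 1201 with arrays centred on their median and 1221 of 9968 genes above the median signal. The cause of the other moves was not tested, while leaving out a pair also leaves fewer samples. Other counts stayed within 1.5 times, and the difference between the contrasts with and without peptide gave 0 calls under all 13 alternatives. Of 145 genes named by the rule, 140 were called, 81 of them in every alternative that tested them, and 0 changed direction. Calls or their absence were otherwise kept except for 52 genes without the pairing, 26 to 30 without pair 1, 2, 4 or 5, 7 without pair 3, 12 with all 40 arrays, 8 with a random block, 5 with quantile normalisation, 4 with centring, 2 with trend and robust fitting and 1 with the mean of probe sets.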
